A study of Rattus norvegicus with 12 samples.

Results

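The hematoma of a 5.0 mm femoral defect in the rat, which the labels class as nonunion, was compared with the hematoma of a 0.5 mm defect, classed as normal healing. Each group held 3 RNA-seq libraries, so the comparison used 6 of the 12 libraries of the series. The other 6 were 3 hematomas of 1.5 mm defects (delayed healing) and 3 pieces of healthy femur taken out when the 5.0 mm defects were made (preOP). The rats were male, of the SAS Fischer strain, and weighed 200 to 225 g. The time after surgery is not given in the sources used here, and neither is whether each library came from its own animal. P-values therefore measure the spread between libraries, which may be technical.

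Bone defects that heal by themselves pass through a clot, a granulation tissue and a soft callus of cartilage, which is then replaced by woven bone. Osteoblasts lay down a collagen matrix and mineralise it with alkaline phosphatase and acidic matrix glycoproteins, and those that become buried turn into osteocytes. Growth plate chondrocytes express collagen types II, IX and XI and respond to Indian hedgehog and parathyroid hormone-related peptide. A defect longer than a species-specific limit does not bridge and is used as a model of nonunion.

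Of 12474 genes tested, 296 (2.37%) differed between nonunion and normal at an edgeR adjusted p below 0.05, of which 111 (0.89%) were higher and 185 (1.48%) lower in nonunion. The 3 nonunion libraries lay wholly above or wholly below the 3 normal libraries for all 296 called genes. Over all genes tested, such a gap between the libraries, whatever the test, was found for 12.4% with nonunion above and 18.2% with nonunion below. The called set was unevenly built. Genes of mineralised matrix, cartilage and neutrophil or eosinophil granules were among the largest decreases, while many of the genes called higher were of low abundance. Levels are given as CPM, reads per 1e6 of a library size scaled by TMM. For nonunion 2 that size was 6914131, against a total of 24325162 reads. The genes called higher had a median level of 8.24 CPM in nonunion, and 44 of the 111 averaged under 5 CPM there. The genes called lower had a median of 48.9 CPM in normal.

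**Figure D1:**
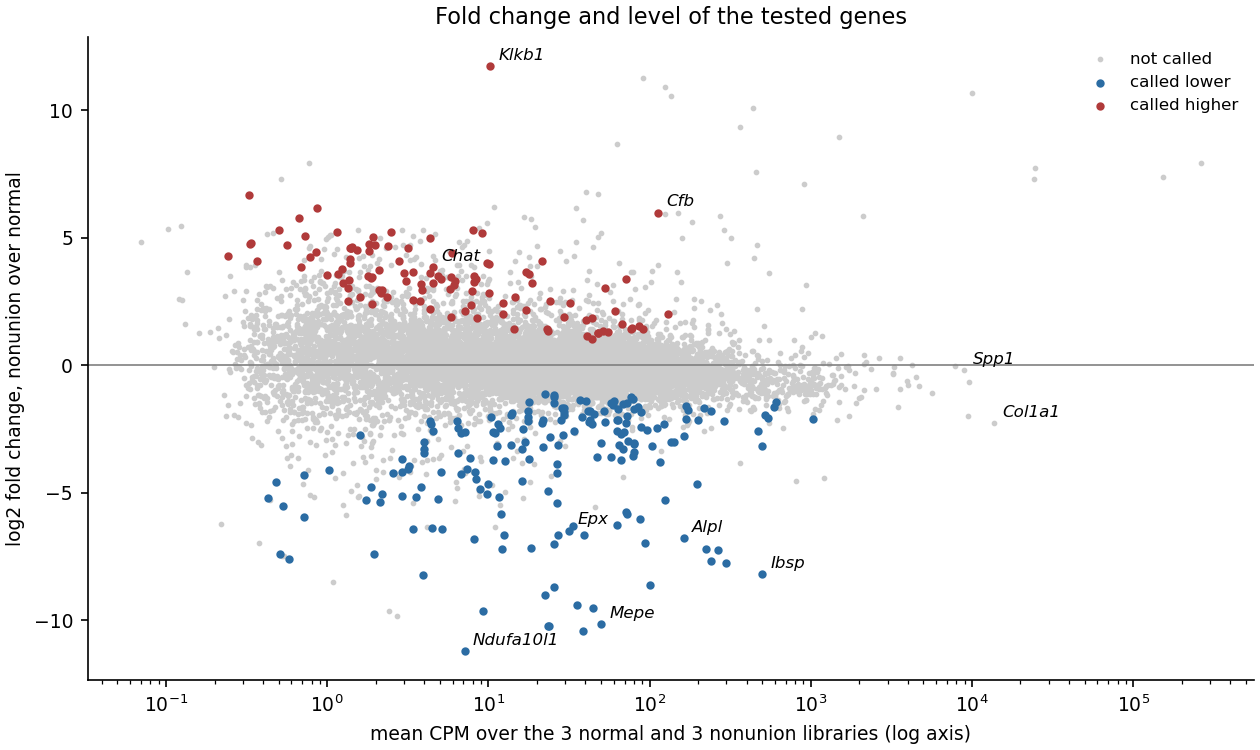
Mean CPM over the 3 normal and 3 nonunion libraries (log axis) against the log2 fold change of nonunion over normal, 1 point per tested gene, with the 185 genes called lower in blue and the 111 called higher in red. Named points show that skeletal and granule genes are among the largest decreases, while the abundant Spp1 and Col1a1 are not called.

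The counts depended on single libraries. With 1 of the 6 libraries left out, 23 to 159 genes were called. The count was 23 without nonunion 3, 36 without normal 1, 36 without normal 3, 65 without nonunion 1, 80 without normal 2 and 159 without nonunion 2. A set of 17 genes was called in the reported fit and under all 19 alternatives. They were Alpl, Bglap, Chat, Col11a2, Comp, Cyp4v3, Defa11, Ibsp, Klkb1, Mapk8ip3, Mboat7, Mepe, Ndufa10l1, Panx3, Slc13a5, Wnt5b and 1 transcript without a symbol. The normal files differ in form from all others, as described below, and none of the 19 alternatives could part that form from the defect. A call under all of them is therefore no sign of an effect of the defect. Klkb1, Mboat7 and Ndufa10l1 of this set split the libraries as the form of the file does.

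Features of the libraries that bear on every value below are as follows. Library totals were 16979305 to 18890622 estimated reads in normal and 18587661 to 24325162 in nonunion. Ribosomal RNA took 72.2% of the reads of nonunion 2 and at most 1.75% in each of the 11 other libraries, which left 6752346 other reads in nonunion 2. Its summed adipocyte markers (6 of 6 in the files) reached 10523 CPM, against 462 to 502 CPM in the other nonunion libraries and 127 to 460 CPM in normal. The 3 normal files were also written differently, since 16.8% to 18.1% of the read numbers there have a decimal point and 100% in the other 9 files. Effective lengths were shorter than transcript lengths by a median of 157 to 192 bases in normal files and of 194 to 255 bases in the others. This difference in how the files were made and the 0.5 mm defect cannot be told apart.

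Of 14 tested genes of bone matrix and mineralisation, 6 were lower in nonunion and none higher, with a median log2 fold change of -3.38 over the 14, against -0.03 over all genes tested. Ibsp encodes bone sialoprotein, an acidic glycoprotein that binds hydroxyapatite. It stood at 890, 863 and 1226 CPM in the normal libraries and at 4.71, 2.31 and 3.09 CPM in the nonunion libraries. Every normal library thus lay far above every nonunion library, with a log2 fold change of -8.18 (SE 0.46, edgeR adjusted p = 0.00024). Bglap encodes osteocalcin, the vitamin K-dependent protein of mature osteoblasts. Its normal values of 81.6, 80.6 and 71.2 CPM compared with 0.684, 1.16 and 0.563 CPM in nonunion, a log2 fold change of -6.68 (SE 0.41, edgeR adjusted p = 0.00027). Alpl encodes tissue-nonspecific alkaline phosphatase, which releases phosphate for mineral growth. It measured 314, 351 and 305 CPM in normal and 4.48, 1.88 and 2.29 CPM in nonunion. These 3 genes varied little among the normal libraries and passed the threshold whichever library was left out.

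Promoters of 4 skeletal genes with large decreases are printed so that the sequence upstream of each can be read beside its values. They are taken from RefSeq on GRCr8, run from 250 bases before to 50 bases after the annotated start, and are written in the direction of the gene. Capitals mark 3 motifs on either strand: the RUNX core TGTGGT, the AP-1 element TGAGTCA and the TATA box TATAAA. The coordinates are chr14:5757193-5757492 (minus strand) for Ibsp, chr2:176137269-176137568 (minus strand) for Bglap, chr14:5736809-5737108 (minus strand) for Mepe and chr8:12782579-12782878 (plus strand) for Mmp13.
Ibsp: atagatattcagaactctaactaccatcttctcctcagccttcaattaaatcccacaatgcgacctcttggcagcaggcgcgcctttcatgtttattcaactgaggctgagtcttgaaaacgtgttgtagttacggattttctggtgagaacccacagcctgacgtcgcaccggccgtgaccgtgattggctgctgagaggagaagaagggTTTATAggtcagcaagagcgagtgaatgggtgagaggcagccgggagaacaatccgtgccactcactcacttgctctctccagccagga
Bglap: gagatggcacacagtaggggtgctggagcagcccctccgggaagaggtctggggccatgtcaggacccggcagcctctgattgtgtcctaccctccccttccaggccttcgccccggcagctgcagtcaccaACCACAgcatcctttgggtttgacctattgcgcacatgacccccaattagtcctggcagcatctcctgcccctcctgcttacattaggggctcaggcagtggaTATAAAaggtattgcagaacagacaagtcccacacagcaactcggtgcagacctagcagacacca
Mepe: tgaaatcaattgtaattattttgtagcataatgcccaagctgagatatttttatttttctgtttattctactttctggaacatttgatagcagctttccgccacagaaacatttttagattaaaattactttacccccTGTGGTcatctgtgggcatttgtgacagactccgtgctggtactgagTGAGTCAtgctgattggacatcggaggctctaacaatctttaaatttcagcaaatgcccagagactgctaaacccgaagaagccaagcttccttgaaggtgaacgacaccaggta
Mmp13: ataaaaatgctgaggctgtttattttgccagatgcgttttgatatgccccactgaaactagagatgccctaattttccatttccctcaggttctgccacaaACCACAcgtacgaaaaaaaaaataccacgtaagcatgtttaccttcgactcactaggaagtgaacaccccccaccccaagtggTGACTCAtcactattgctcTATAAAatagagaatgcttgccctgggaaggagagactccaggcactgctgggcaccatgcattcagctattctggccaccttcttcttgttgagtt
They were chosen with values and matches known: Ibsp had the smallest adjusted p, and Bglap, Mepe and Mmp13 each held more than 1 of the motifs. A RUNX core was found in Bglap at -118, in Mepe at -112 and in Mmp13 at -149, counting the annotated start as +1 and giving the leftmost base. The AP-1 element occurred in Mepe at -65 and in Mmp13 at -66, and a TATA box in Ibsp at -39, in Bglap at -15 and in Mmp13 at -47. Of the 17 called-lower genes of the bone and cartilage lists with a promoter in the table, 4 held the RUNX core, 3 the AP-1 element and 3 the TATA box. Alpl, Col11a2, Col9a1, Col9a2, Comp, Dmp1, Fmod, Pth1r, Sost and Twist1 held none of the 3. Among 27457 RefSeq promoters of the same length the shares were 17.0%, 4.53% and 14.3%, and among the 9577 tested genes with a promoter they were 12.8%, 3.72% and 7.63%. The matches are a description of these letters only.

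The other called bone matrix genes were Cgref1, Phospho1 and Fmod, and 8 of the 14 did not pass the test. Cgref1, a secreted calcium-binding protein, was lower at 7.33, 10.8 and 8.48 CPM in nonunion against 67.7, 129 and 122 CPM in normal. Phospho1, a phosphatase of matrix vesicles, was lower at 23.1, 7.09 and 11.3 CPM against 110, 191 and 141 CPM. Fmod, the collagen-binding proteoglycan fibromodulin, was lower at 12, 26.2 and 6.87 CPM against 385, 270 and 480 CPM. Each of these 3 calls was lost without nonunion 1 or nonunion 3. That of Cgref1 was also lost without normal 3, and that of Fmod without any single normal library. The call of Phospho1 was lost with any 1 of the 6 libraries left out. Col1a1, the main collagen chain of bone, tendon and skin, did not pass the test, although its libraries did not overlap: 26592, 16006 and 25265 CPM in normal and 4065, 4926 and 5043 CPM in nonunion (log2 fold change -2.27, SE 0.67, edgeR adjusted p = 0.10). Spp1, osteopontin, which macrophages as well as bone cells secrete, overlapped fully, at 6922, 13510 and 8277 CPM in normal and 15151, 33.4 and 9782 CPM in nonunion. The low Spp1 value was that of nonunion 2, the library rich in ribosomal RNA. With that library left out, 7 of the 14 bone matrix genes were called lower, and with any 1 of the 6 left out the count was 3 to 7.

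Osteoblast regulators changed less than the matrix genes. Of 10 tested, 3 were lower in nonunion and none higher, with a median log2 fold change of -1.85. Dlx5, a homeobox factor of osteoblasts, measured 14.6, 11.7 and 12.2 CPM in normal and 0.684, 0.579 and 0.683 CPM in nonunion (log2 fold change -4.28, SE 0.48, edgeR adjusted p = 0.0057). Dlx3, a related homeobox factor, had a log2 fold change of -2.46 (SE 0.35, edgeR adjusted p = 0.014), and Twist1, a basic helix-loop-helix factor of mesenchymal precursors, one of -2.28 (SE 0.39, edgeR adjusted p = 0.027). Runx2, which commits cells to the osteoblast lineage, overlapped between groups at 78.1, 35.9 and 64.2 CPM in normal and 35.1, 7.09 and 44.3 CPM in nonunion. Sp7, which acts after Runx2, stood at 23.8, 5.42 and 22.1 CPM in normal and at 1.41, 0 and 0.0804 CPM in nonunion. Its libraries did not overlap, yet it missed the threshold (log2 fold change -4.93, SE 1.22, edgeR adjusted p = 0.068). No regulator was called without nonunion 3.

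Mepe was the osteocyte gene with the largest decrease. Of 11 tested osteocyte genes, 5 were lower and none higher, with a median log2 fold change of -3.62. The uncalled Fam20c, Kcnk2, Ankh, Pdpn and Gja1 had log2 fold changes of 0.50, 0.27, -0.21, -0.65 and -1.36. Mepe, a matrix phosphoglycoprotein of osteocytes, fell from 109, 89.1 and 102 CPM in normal to 0.152, 0 and 0.0402 CPM in nonunion. Only 5 reads in all were assigned to it in the 3 nonunion libraries, and its log2 fold change was -10.14 (SE 0.83, edgeR adjusted p = 0.0014). Dmp1, dentin matrix protein 1, measured 172, 111 and 235 CPM in normal and 1.06, 5.50 and 1.85 CPM in nonunion (log2 fold change -6.03, SE 1.12, edgeR adjusted p = 0.032). Irx5, Dkk1 and Sost were also lower, with log2 fold changes of -4.20, -3.62 and -4.30. Dkk1 and Sost encode secreted inhibitors of Wnt signalling. Sost itself was scarce even in normal, at 1.64, 0.874 and 1.63 CPM. Phex, an osteocyte endopeptidase, ranged from 1.34 to 33.2 CPM among the normal libraries and was not called. Mepe was the osteocyte gene called whichever library was left out, and the calls of Dmp1 and Sost were lost with any 1 of the 6 left out.

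Panx3 and Slc13a5 were the other leading decreases of skeletal genes. Panx3, a channel protein of osteoblasts and prehypertrophic chondrocytes, measured 47.4, 60.8 and 123 CPM in normal and 0.038, 0 and 0.0804 CPM in nonunion. Its 3 reads in the nonunion libraries give a ratio of normal over nonunion of 1534 (exact binomial 95% interval 525 to 7442, counting error only). Slc13a5, a citrate transporter of the cell membrane, measured 49.1, 104 and 115 CPM in normal and 0.228, 0 and 0.0402 CPM in nonunion (log2 fold change -9.53, SE 0.83, edgeR adjusted p = 0.0015).

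**Figure D2:**
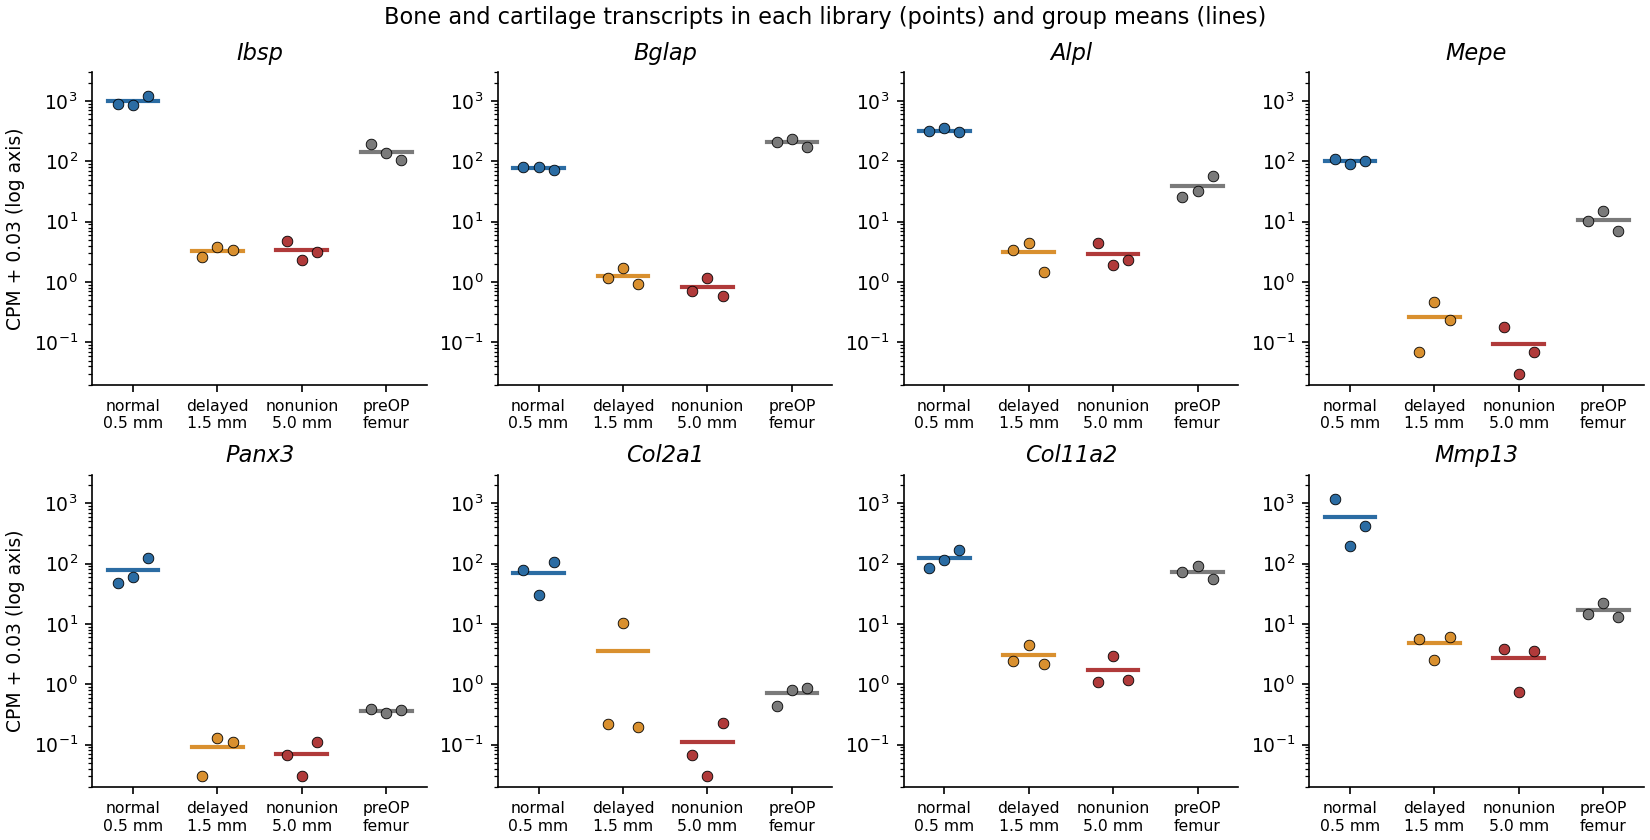
CPM plus 0.03 (log axis) of 8 skeletal genes in each of the 12 libraries, with 1 point per library and a line at each group mean. The 3 nonunion and the 3 normal libraries are apart in every panel. The preOP femur, whose files have the same form as the nonunion files, lies above nonunion in every panel. For Panx3, however, preOP stands at only 0.302 to 0.362 CPM, against 47.4 to 123 CPM in normal. Those preOP values lie under the 0.434 CPM that 3 reads make in nonunion 2.

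Cartilage matrix genes were lower in a similar manner. Of 11 tested, 7 were lower and none higher, with a median log2 fold change of -4.92. Col11a2, a chain of type XI collagen, measured 83.7, 117 and 169 CPM in normal and 1.06, 2.89 and 1.17 CPM in nonunion (log2 fold change -6.26, SE 0.57, edgeR adjusted p = 0.0015). Comp, cartilage oligomeric matrix protein, measured 62.1, 34.1 and 40.1 CPM in normal and 2.09, 1.01 and 1.29 CPM in nonunion (log2 fold change -4.92, SE 0.51, edgeR adjusted p = 0.0042). Both kept their calls whichever library was left out. Col2a1, the type II collagen of hyaline cartilage, measured 77.4, 30.0 and 106 CPM in normal and 0.038, 0 and 0.201 CPM in nonunion (log2 fold change -9.39, SE 1.92, edgeR adjusted p = 0.042). It also varied between the delayed libraries, of which delayed 2 stood at 10.1 CPM and the others at 0.192 and 0.164 CPM. The call of Col2a1 was lost with any 1 library left out, as were those of Hapln1, which links aggrecan to hyaluronan, and of the type IX collagen chains Col9a1 and Col9a2. Matn4, a matrilin, was lower as well (log2 fold change -6.41, SE 1.16, edgeR adjusted p = 0.030). Acan, aggrecan, was not called: it measured 285, 94.4 and 270 CPM in normal and 46.8, 0.145 and 14.7 CPM in nonunion. With nonunion 2 left out 3 of 12 tested cartilage genes were called, and with each other library left out 2 were.

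Signals of the growth plate and their receptors gave 3 calls among 11 tested genes, all lower. Sox9, the transcription factor of chondrocyte fate, measured 25.2, 12.9 and 16.7 CPM in normal and 2.85, 3.18 and 2.89 CPM in nonunion. Ihh, Indian hedgehog, measured 2.26, 5.24 and 3.41 CPM in normal and 0.076, 0 and 0.241 CPM in nonunion. Pth1r, the receptor for parathyroid hormone and its related peptide, measured 98.7, 130 and 142 CPM in normal and 6.27, 23.6 and 8.20 CPM in nonunion. Their log2 fold changes were -2.62 (SE 0.43), -4.78 (SE 0.78) and -3.30 (SE 0.70), with edgeR adjusted p of 0.023, 0.023 and 0.047. None of the 11 was called without normal 1, normal 3, nonunion 1 or nonunion 3.

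In the Wnt list 2 of 26 tested genes were lower and none higher, against 1.48% called lower over all genes tested. No count of a list was tested against that share. Wnt5b, a ligand that acts mainly without beta-catenin, measured 19.1, 22.1 and 18.3 CPM in normal and 1.33, 1.88 and 1.41 CPM in nonunion (log2 fold change -3.70, SE 0.39, edgeR adjusted p = 0.0045). Fzd2, a Wnt receptor, measured 47.0, 38.9 and 42.0 CPM in normal and 6.42, 4.34 and 7.07 CPM in nonunion. The canonical target genes Axin2 and Lef1 overlapped between the groups, at 0.466 to 2.33 against 0.402 to 3.18 CPM and at 0.116 to 1.38 against 0.322 to 0.874 CPM. Notum, Nkd1 and Nkd2 of the same list had log2 fold changes of -3.63, -2.06 and -1.49 and were not called. Of the 26 Wnt genes, 19 had negative and 7 positive log2 fold changes, with a median of -0.93. In the list of BMP and TGF-beta signalling 3 of 36 were lower and none higher, beside the same share of 1.48%. These were Bambi, a decoy receptor (log2 fold change -3.67), Grem1, a BMP antagonist (-4.05), and Tgfb3, a ligand (-1.49). Grem1 varied widely among the normal libraries, at 29.6, 4.78 and 7.37 CPM, and stood at 0.760, 1.01 and 0.764 CPM in nonunion. The ligands Bmp2, Bmp3 and Bmp4 were not called and overlapped between the groups. Id1 and Id3, targets of BMP signalling, were at or above 49.6 and 195 CPM in normal and at or below 32.0 and 82.6 CPM in nonunion without passing the threshold (edgeR adjusted p = 0.20 and 0.052).

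Among 20 tested matrix proteases and their inhibitors 2 were lower, against 1.48% of all genes tested. Mmp13, the collagenase of hypertrophic chondrocytes and osteoblasts, measured 1163, 194 and 428 CPM in normal and 3.76, 0.723 and 3.58 CPM in nonunion (log2 fold change -7.74, SE 0.96, edgeR adjusted p = 0.0087). It was the protease with the largest decrease, and the call was lost only without nonunion 3 (edgeR adjusted p = 0.055). Mmp3, stromelysin, was lower as well, at 6.36, 4.54 and 7.37 CPM against 0.418, 0 and 0.603 CPM. Its call held in 9 of 19 alternatives and in 1 of the 6 fits with a library left out, and was lost without the filter and without ribosomal RNA. Mmp9, the gelatinase of osteoclasts and neutrophils, measured 301, 48.9 and 47.3 CPM in normal and 35.2, 4.19 and 10 CPM in nonunion and was not called.

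Of 15 tested genes of general connective tissue, 13 had negative log2 fold changes, with a median of -0.81 over the 15. Called lower in nonunion were 2 of the 15, against 1.48% of all genes tested. They were Cthrc1, a secreted protein of matrix-producing cells, and Lum, the collagen-binding proteoglycan lumican. Cthrc1 measured 230, 212 and 287 CPM in normal and 32.0, 11.4 and 47.4 CPM in nonunion, and Lum 2123, 1051 and 1880 CPM against 405, 247 and 525 CPM. Col3a1, the collagen of loose connective tissue, overlapped between groups, at 14960, 7228 and 13017 CPM in normal and 5296, 10830 and 5953 CPM in nonunion. Fn1, fibronectin, overlapped too, at 2402 to 4012 CPM in normal and 1625 to 6006 CPM in nonunion. The call of Lum was lost with any 1 library left out, as were those of Fzd2, Tgfb3, Prg2 and Retnlg. Outside the lists, other called genes of tendon and periosteal matrix were picked after their values were seen. They were Tnmd, tenomodulin (21.8 to 35.9 against 0.868 to 1.60 CPM), Kera, keratocan (10.7 to 34.5 against 0.0402 to 0.494 CPM), C1qtnf3, a secreted protein of cartilage and periosteum (81.8 to 198 against 1.30 to 3.31 CPM), and Clec11a, an osteogenic growth factor (73.9 to 190 against 5.79 to 15.5 CPM). Crtap, P3h4, Kdelr3 and Rcn3 were called as well, with log2 fold changes of -1.68, -2.43, -2.16 and -2.17. With 1 of the 6 libraries left out, Crtap and P3h4 were each called in 1 of 6 fits, and Kdelr3 and Rcn3 in 0.

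Neutrophil granule genes, which are transcribed in marrow precursors and little in circulating neutrophils, were the list with the lowest median. Of 9 tested, 6 were lower in nonunion and none higher, with a median log2 fold change of -5.83. Np4, a neutrophil defensin, measured 1144, 168 and 267 CPM in normal and 3.42, 5.93 and 1.29 CPM in nonunion (log2 fold change -7.25, SE 1.09, edgeR adjusted p = 0.017). Lcn2, lipocalin 2, measured 423, 68.7 and 68.7 CPM in normal and 2.09, 1.74 and 0.723 CPM in nonunion. Ctsg, cathepsin G, measured 113, 13.3 and 34.6 CPM in normal and 0.456, 0.868 and 0.402 CPM in nonunion. In each of these 3 genes normal 1 lay well above the other normal libraries. Defensin genes share sequence and reads could be divided between them, so their sum over 9 genes is the safer value: it was 3257, 513 and 721 CPM in normal and 8.97, 14.6 and 3.86 CPM in nonunion. The number of called granule genes was 0 to 3 with 1 library left out, and it was 0 without nonunion 1 or without nonunion 3.

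Eosinophil granule genes were lower too. Epx, eosinophil peroxidase, measured 122, 30.1 and 36.2 CPM in normal and 0.608, 1.16 and 0.482 CPM in nonunion (log2 fold change -6.49, SE 0.87, edgeR adjusted p = 0.012). Prg2, eosinophil major basic protein, measured 379, 119 and 106 CPM in normal and 0.836, 0.289 and 0.281 CPM in nonunion, and its paralog Prg3 was lower too. Rnase3, an eosinophil ribonuclease outside the list, measured 103, 19.0 and 18.3 CPM in normal and had 2 reads in the nonunion libraries, a ratio of 1369 (exact binomial 95% interval 379 to 11314, counting error only). Epx, Prg2 and Prg3 were the only calls among 12 tested eosinophil and mast cell genes, and the count was 0 without nonunion 1 or without nonunion 3. The mast cell genes Cpa3 and Cma1 stood at 17.9 and 20.4 CPM in nonunion 2 and at 0.241 CPM or less in the other nonunion libraries. The median log2 fold change of the list was -0.07 with nonunion 2 and -4.06 without it.

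Among 11 tested genes of mature neutrophils, 10 had negative log2 fold changes, the median was -1.04, and Retnlg alone was called (log2 fold change -6.29, SE 1.21, edgeR adjusted p = 0.035). S100a9, a calcium-binding protein abundant in neutrophils, measured 5281, 703 and 959 CPM in normal and 274, 21.7 and 27.7 CPM in nonunion without overlap, but missed the threshold (edgeR adjusted p = 0.12). Csf3r, the receptor for granulocyte colony-stimulating factor, overlapped, at 67.3, 32.6 and 46.9 CPM in normal and 139, 8.39 and 24.2 CPM in nonunion. Among 17 erythroid genes, the alpha globin copy Hba-a3 alone was called. Alpha globin copies share reads, and the sum of the 3 copies was 4244, 1415 and 1200 CPM in normal and 595, 540 and 746 CPM in nonunion. All 8 tested platelet genes had negative log2 fold changes, from -5.40 to -1.87, and none was called. In bulk tissue, fewer cells of a type and less RNA per cell cannot be told apart.

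**Figure D3:**
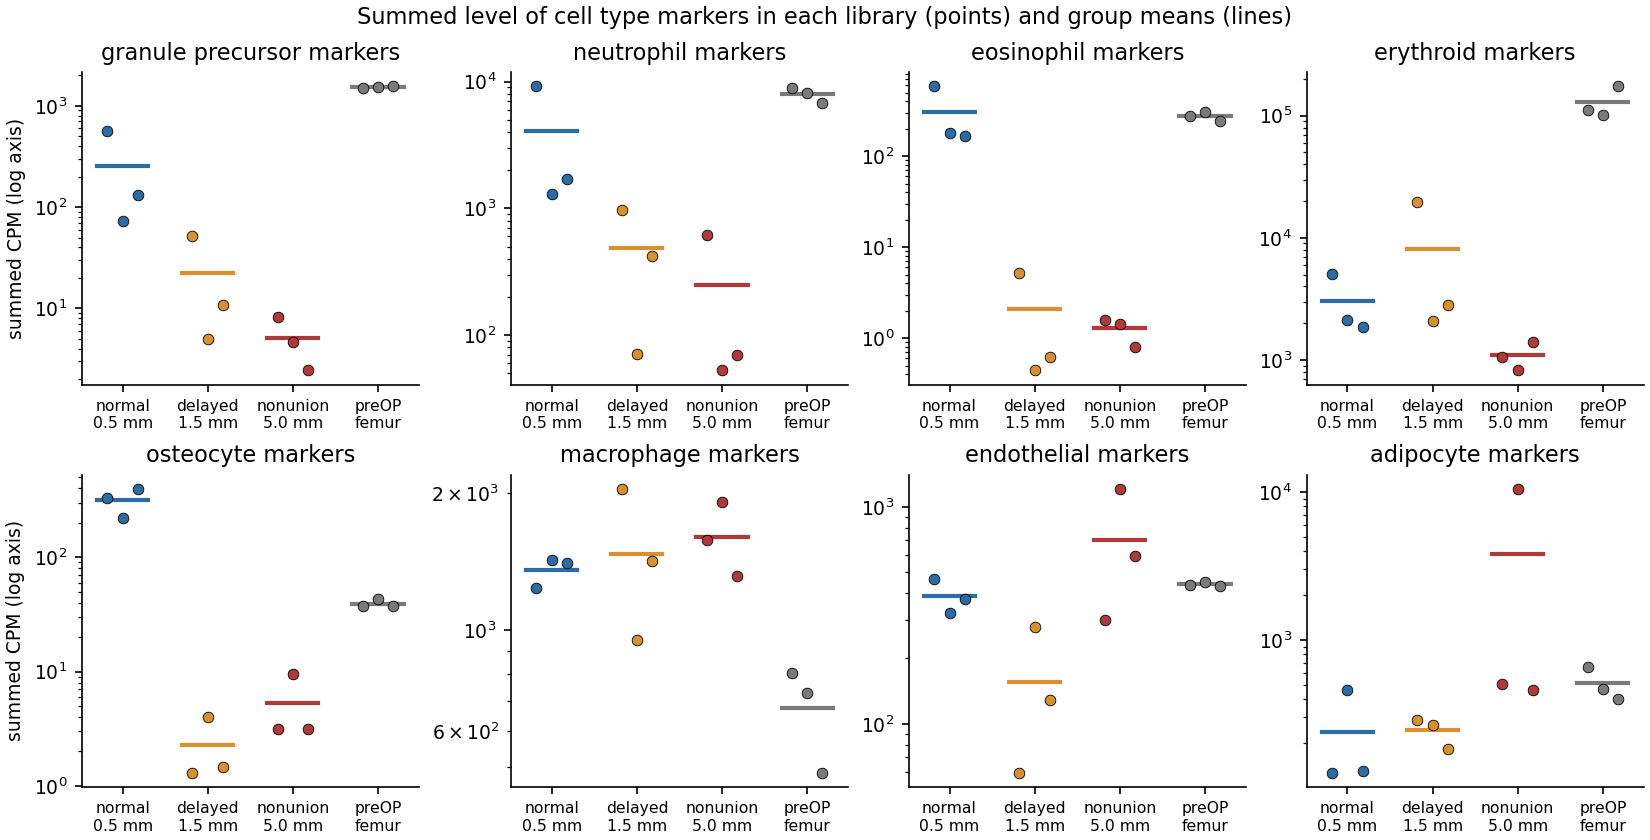
Summed CPM (log axis) of the markers of 8 cell types in each library, with 1 point per library and a line at the group mean. Granule precursor sums were 72.2 to 561 CPM in normal and 2.45 to 8.32 CPM in nonunion, macrophage sums overlapped, and the adipocyte sum of nonunion 2 stood apart at 10523 CPM.

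The preOP femur gave a reference from files of the same form as the nonunion files. Its granule precursor markers summed to 1495 to 1552 CPM and its osteocyte markers to 37.0 to 42.9 CPM, against 3.12 to 9.55 CPM in nonunion and 219 to 397 CPM in normal. Ibsp stood at 104 to 195 CPM, Bglap at 175 to 237 CPM, Alpl at 25.9 to 57.0 CPM and Mepe at 6.94 to 14.8 CPM in preOP, each above every nonunion library. For Bglap preOP also lay above every normal library. Panx3 stood at 0.302 to 0.362 CPM in preOP. Over the 185 genes called lower, the preOP mean lay nearer to nonunion for 142 and nearer to normal for 43 on the log2(CPM + 0.5) scale. On the linear CPM scale, added later, the counts were 158 and 27, and Ibsp, Alpl, Mepe, Dmp1, Slc13a5, Fmod and Tnmd were then nearer to nonunion. On the log2 scale the 43 included Ibsp, Alpl, Bglap, Mepe, Dmp1, Slc13a5, Col11a2, Fmod, Kera and Tnmd, and the granule genes Np4, Defa5, Camp, Ctsg, Epx, Prg2 and Prg3. For the 111 genes called higher, the preOP mean lay nearer to nonunion for 98 on the log2 scale and 92 on the linear scale. The delayed and preOP means both lay nearer to nonunion for 97 of these 111 and 141 of the 185 on the log2 scale. These counts were not computed over all tested genes. The defect and the form of the file cannot be told apart for these or any other genes of the comparison with normal. The femur is another tissue, so its values do not settle this for the remaining genes.

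Many tissue and process lists gave no call. Over all genes tested 2.37% were called, and at that share a list of 7 to 27 genes often holds no call. None was called among 14 tested osteoclast genes, 19 macrophage genes, 17 endothelial genes, 12 pericyte and smooth muscle genes, 27 genes of hypoxia and glycolysis, 18 proliferation genes, 23 interferon response genes and 17 cytokines. Ctsk, the collagen-degrading protease of osteoclasts, measured 482, 305 and 273 CPM in normal and 313, 82.3 and 232 CPM in nonunion. Csf1r, the receptor that marks macrophages, measured 315, 343 and 407 CPM in normal and 505, 369 and 306 CPM in nonunion, and summed macrophage markers were 1240 to 1428 CPM against 1315 to 1909 CPM. Pecam1, an endothelial adhesion molecule, measured 160, 129 and 134 CPM in normal and 113, 425 and 245 CPM in nonunion. Mki67, a proliferation marker, measured 239, 185 and 251 CPM in normal and 176, 47.1 and 196 CPM in nonunion. Il1b and Tnf, inflammatory cytokines, ranged from 1.45 to 44.9 CPM and from 1.74 to 13 CPM over the 6 libraries with overlap between the groups. There was also no call among 16 genes of FGF and IGF signalling, 14 of Notch signalling, 13 of limb patterning, 17 of antigen presentation, 17 of the stress response, 17 of oxidant defence and iron handling, 15 of T and NK cells, 7 of B cells, 11 of Schwann cells and 19 of skeletal muscle. In the list of 20 immediate early genes only Jund, an AP-1 subunit, was called (log2 fold change -2.26). A threshold that is missed does not show that these genes were alike in the hematomas.

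The adipocyte list had the highest median, 3.66 over 10 tested genes, and no call. Adipoq, adiponectin, stood at 2165 CPM in nonunion 2, at 0.380 and 4.70 CPM in the other nonunion libraries and at 0.607 to 1.81 CPM in normal. Without nonunion 2 the median of the list was 0.93. Fabp4, a fatty acid-binding protein of adipocytes and endothelium, lay higher in all 3 nonunion libraries, at 488, 4154 and 421 CPM against 84.6, 394 and 94.8 CPM, and was not called (edgeR adjusted p = 0.13).

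**Figure D4:**
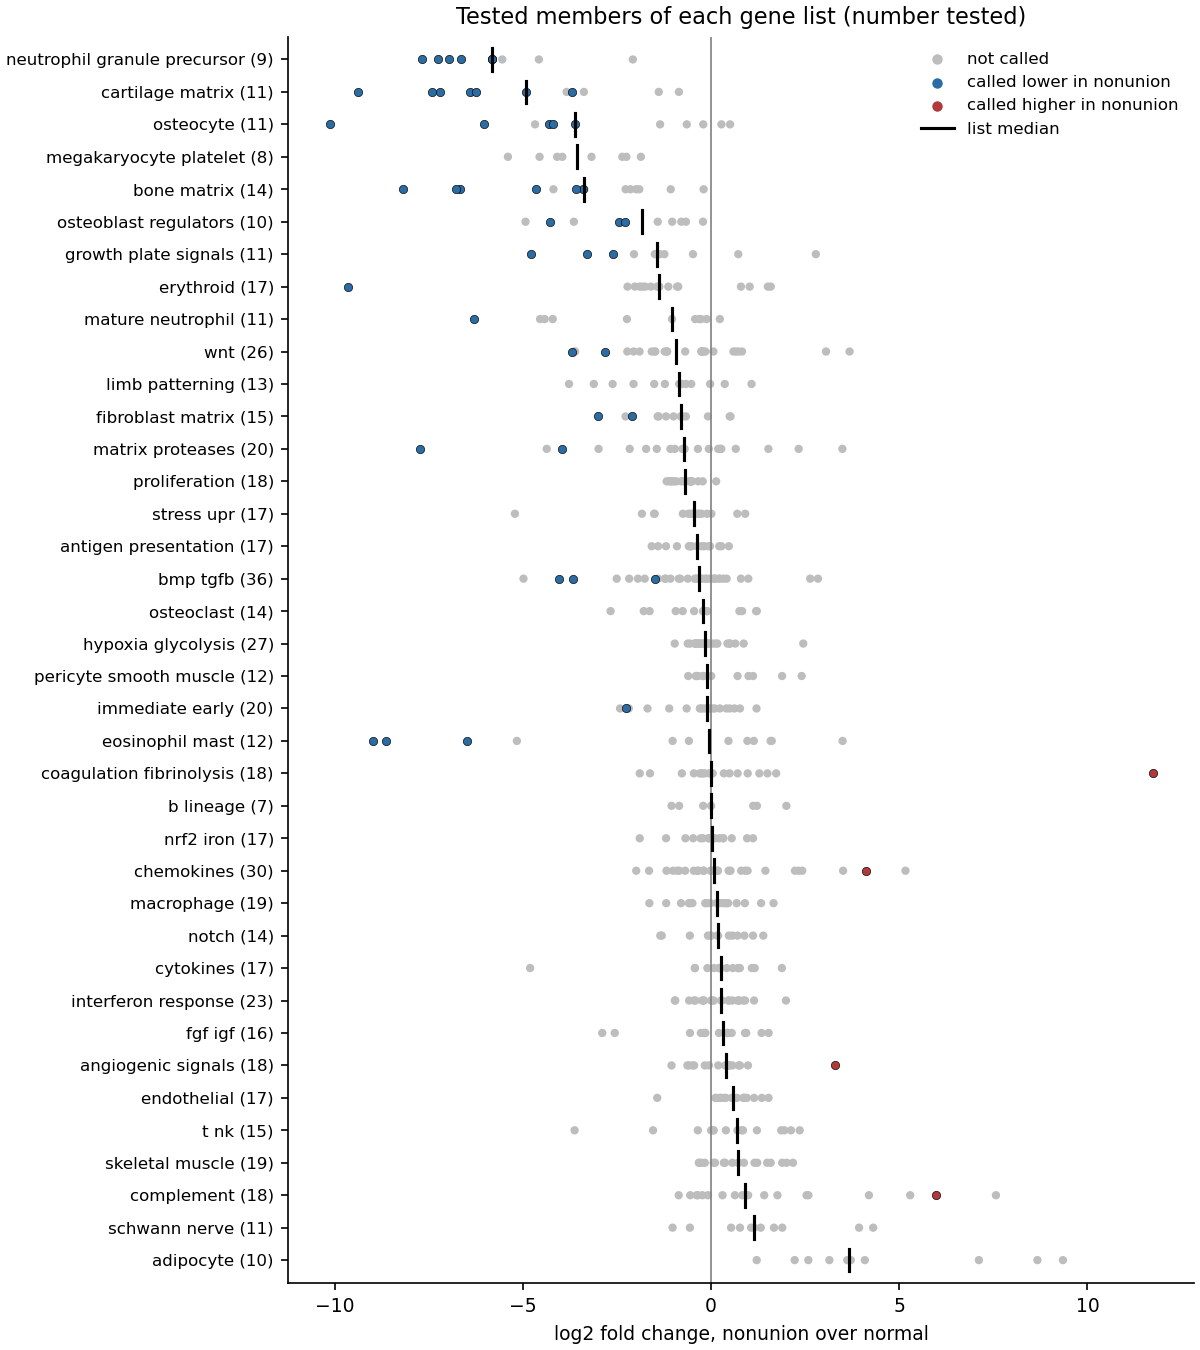
Log2 fold change of nonunion over normal for each tested member of the 38 gene lists, with 1 point per gene, called genes in colour and a black line at the list median. Calls among skeletal and granule lists are all lower in nonunion, and 4 lists hold a gene called higher.

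Over all 12474 genes tested, 111 (0.89%) were called higher in nonunion. Among the 615 tested genes of the 38 lists such calls were about as rare. There was 1 call each among 18 complement genes (Cfb), 30 chemokines and their relatives (Cxcl9), 18 angiogenic signals (Vegfd) and 18 coagulation genes (Klkb1). Cfb, complement factor B of the alternative pathway, measured 3.43, 3.73 and 3.36 CPM in normal and 19.1, 548 and 99.6 CPM in nonunion (log2 fold change 5.98, SE 1.11, edgeR adjusted p = 0.031). Nonunion 2 set much of that size, and without it the log2 fold change was 4.16 (edgeR adjusted p = 0.035). The call of Cfb was lost without normal 1, normal 2, normal 3 or nonunion 3, at edgeR adjusted p from 0.063 to 0.13. C4b, another complement gene, reached 2647 CPM in nonunion 2 against 9.08 and 76.8 CPM in the other nonunion libraries and 4.15 to 5.77 CPM in normal, and was not called (edgeR adjusted p = 0.069). Cxcl9, an interferon-induced chemokine, measured 3.23, 1.51 and 2.29 CPM in normal and 11.4, 65.2 and 45.0 CPM in nonunion. With single libraries left out, the call of Cxcl9 was kept only without nonunion 1. Cxcl10, also induced by interferon, overlapped at 4.34 to 9.28 CPM in normal and 3.84 to 23.5 CPM in nonunion. Vegfd, a ligand of lymphatic and vascular endothelial receptors, measured 1.23, 0.641 and 2.61 CPM in normal and 7.60, 25 and 11.7 CPM in nonunion. Its call was lost with any 1 of the 6 libraries left out, whereas Vegfa was not called and overlapped, at 77.4 to 139 CPM against 77.7 to 209 CPM.

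Cyp11b1, the steroid 11-beta-hydroxylase of the adrenal cortex, measured 0.513, 0.524 and 0.420 CPM in normal and 7.83, 31.7 and 14.0 CPM in nonunion (log2 fold change 5.18, SE 0.64, edgeR adjusted p = 0.0087). Akr1d1 and Akr1c14, reductases that act on steroids, had log2 fold changes of 3.97 (SE 0.74) and 3.39 (SE 0.72), and were highest in nonunion 2 at 41.4 and 259 CPM. Gdf3, a ligand of the TGF-beta family that macrophages express, measured 0.410, 2.27 and 0.793 CPM in normal and 18.4, 10.7 and 26.4 CPM in nonunion (log2 fold change 4.01, SE 0.70, edgeR adjusted p = 0.027). Chat, choline acetyltransferase, measured 0.410, 0.757 and 0.607 CPM in normal and 10.4, 8.68 and 6.47 CPM in nonunion (log2 fold change 3.84, SE 0.42, edgeR adjusted p = 0.0057). Chat also stood at 7.62 to 9.31 CPM in delayed and at 4.08 to 5.57 CPM in preOP. For this gene, too, the defect and the form of the file cannot be told apart. Per1, a circadian clock gene, measured 8.77, 6.23 and 6.67 CPM in normal and 53.5, 47.1 and 22.8 CPM in nonunion. Mnda and Pla2g2d, genes of myeloid cells, were higher by log2 fold changes of 1.53 (SE 0.26) and 2.11 (SE 0.35). Nonunion 2 was the highest of the nonunion libraries for 91 of the 111 genes called higher. Some of these genes were picked after their values were seen. With 1 of the 6 libraries left out, Chat was called in 6 of 6 fits, Cyp11b1 in 4, Akr1d1, Gdf3, Per1, Mnda and Pla2g2d in 2 each and Akr1c14 in 1, which was not the fit without nonunion 2.

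A few genes were present in one form of file and absent from the other. Klkb1, the precursor of plasma kallikrein, had 0 reads in all 3 normal libraries, and 14.1, 23.0 and 24.5 CPM in nonunion, at least 131-fold higher against a floor of 3 reads per library. It also stood at 26.2 to 56.4 CPM in delayed and at 16.1 to 21.6 CPM in preOP. The reverse held for Mboat7, a lysophospholipid acyltransferase, at 55.5, 36.6 and 49.9 CPM in normal and at most 0.173 CPM in any of the other 9 libraries. Ndufa10l1, a copy of a respiratory complex I gene, was at 10.3, 15.7 and 16.8 CPM in normal and at 0 reads in nonunion, at least 64.0-fold lower. Acaa1b, Calb2 and Tmem158 showed the same contrast, with at least 1 CPM in each normal library and at most 0.289 CPM in the other 9. These genes separate the normal libraries from both hematoma groups and from the femur, as the form of the file does, and the defect and the file cannot be told apart.

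Class I histocompatibility genes of the RT1 locus were also among the calls, chosen here after their values were seen. RT1-A2 measured 210, 405 and 118 CPM in normal and 5.66, 6.22 and 6.95 CPM in nonunion (log2 fold change -5.28, SE 0.62, edgeR adjusted p = 0.0073), and RT1-A1, RT1-A3, RT1-CE2, RT1-CE3 and RT1-CE10 were lower as well. The locus holds close copies whose reads can be assigned to either, and the strain of these rats is not that of the reference. The sum over 34 class I genes of the locus, not all of them close copies, was 953, 1499 and 994 CPM in normal. It was 254, 585 and 475 CPM in nonunion, a far smaller gap than that of RT1-A2, and 911 to 1044 CPM in preOP. B2m, the invariant subunit of the class I complex, measured 1838, 1670 and 1563 CPM in normal and 1268, 1929 and 1646 CPM in nonunion and was not called.

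Short transcripts made up an outsized part of the genes called lower. Their median length was 1455 bases, against 2993 bases for the genes called higher and 2156 bases for all tested genes, and 31.9% were under 1000 bases, against 7.21% and 10.2%. Over 5 equal bins of transcript length, from short to long, the median log2 fold change of all tested genes was -0.53, -0.20, -0.03, 0.11 and 0.32. In the comparison of nonunion with delayed, where all read numbers have a decimal point, these medians lay between -0.09 and 0.00. The cause of the trend with length was not tested. Of 82 tested genes of the cytosolic ribosome, a family picked after seeing the data, 4 were called lower (Rpl17, Rpl36, Rps13 and Rps21). The median log2 fold change of the 82 was -1.08 and their median length 565 bases. Rpl36 measured 585, 1382 and 715 CPM in normal and 99.7, 92.0 and 105 CPM in nonunion. Of 81 tested respiratory chain genes 5 were called lower, among them Uqcrq, Cox8a and Cox6a1, with a median of -0.88 over the 81. Over all genes tested 1.48% were called lower, and in the shortest length bin 82 of 2495 were. The counts of the 2 families were not tested against these shares. After a smooth trend on length had been taken out of each library, a step added after seeing the data, 223 genes were called, 124 lower and 99 higher, and 198 of the 296 calls were kept. Of the 14 bone matrix genes 7 were then called lower, as were 7 of the 11 cartilage genes, 4 of the 11 osteocyte genes and 3 of the 9 granule genes. Rpl36, Rps13, Rps21, Cox8a and Cox6a1 lost their calls in that fit, as did Lcn2, Retnlg, Camp, Bambi, Pth1r, Mmp3, Crtap, Rcn3 and Akr1c14, while Rpl17 and Uqcrq kept theirs.

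**Figure D5:**
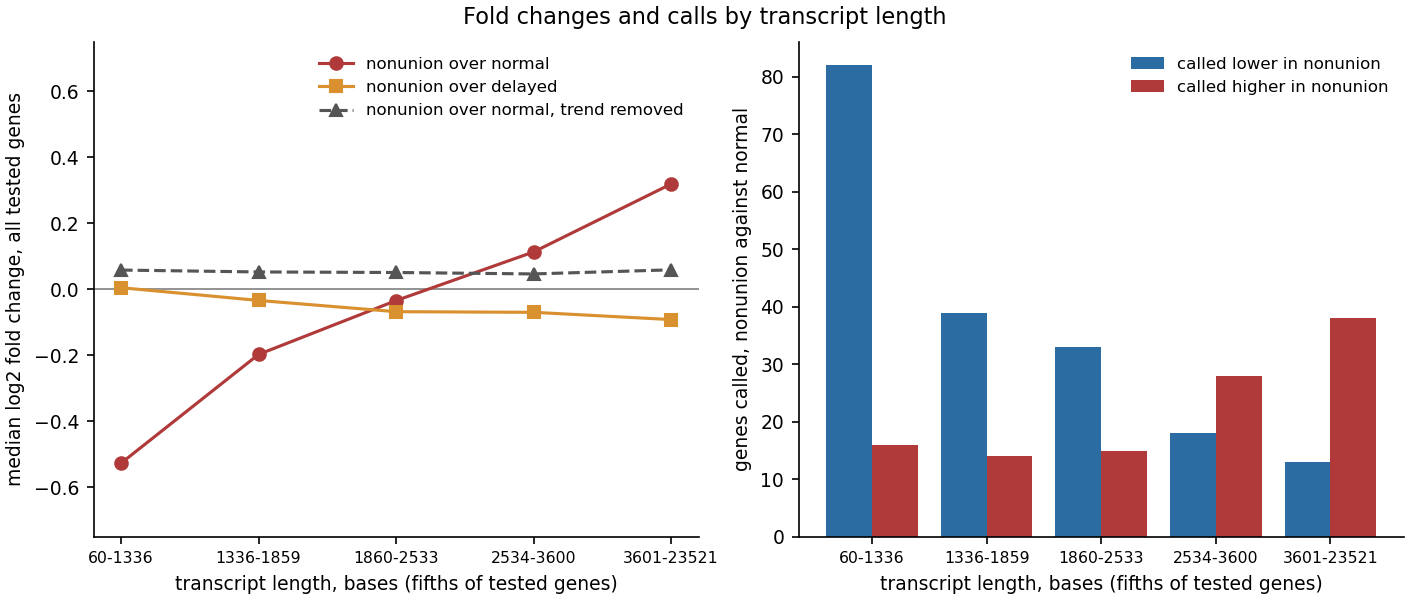
Left, median log2 fold change of all tested genes in 5 equal bins of transcript length (bases) for nonunion over normal (red), nonunion over delayed (orange) and nonunion over normal after the length trend was taken out (grey). Right, number of genes called lower (blue) and higher (red) in each bin: lower calls drop from 82 in the shortest bin to 13 in the longest, and higher calls go from 16 to 38.

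Nonunion was then compared with delayed healing, the intermediate defect. No gene passed the threshold in edgeR (0 of 12474, 0%; 0 higher and 0 lower), and the smallest adjusted p was 0.36. At an unadjusted p below 0.05 there were 881 genes (7.06%). DESeq2 called 184 genes, 149 higher and 35 lower, and limma-voom called 0. The 2 comparisons share the nonunion libraries, so the values are given side by side. On the log2(CPM + 0.5) scale the delayed mean lay nearer to nonunion than to normal for 107 of the 111 genes called higher. For the 185 called lower the number was 184, and on the linear scale the counts were 103 and 185. These genes were chosen for a gap between nonunion and normal, and the share over all tested genes was not computed. The delayed files also have the form of the nonunion files, so likeness of the defects and likeness of the files cannot be told apart. Ibsp measured 2.62, 3.84 and 3.40 CPM in delayed, within the range of its nonunion libraries. Mmp13 measured 5.62, 2.46 and 6.07 CPM and Alpl 3.39, 4.43 and 1.43 CPM, both overlapping with nonunion. Dlx5 and Wnt5b were called lower against normal and lay higher in nonunion than in each delayed library. Dlx5 stood at 0.269, 0.0985 and 0.287 CPM in delayed (log2 fold change of nonunion over delayed 1.54, SE 0.47) and Wnt5b at 0.462, 0.493 and 0.820 CPM (1.35, SE 0.38), and neither passed after adjustment. Vegfa stood at 615, 369 and 771 CPM in delayed, above all nonunion libraries at 77.7 to 209 CPM (log2 fold change -1.97, SE 0.45, edgeR adjusted p = 0.39). Plvap, a protein of fenestrated endothelium, stood at 1.39, 3.50 and 6.80 CPM in delayed and at 16.3, 191 and 24.0 CPM in nonunion, again without a call. An alternative added later, without nonunion 2 and delayed 2, gave 60 calls, of which 56 were higher and 4 lower in nonunion.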

How the data were processed

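RNA of hematoma and femur was made into TruSeq libraries, 3 per group, per the labels' protocols. The authors deposited 1 Salmon table per library with estimated counts, TPM and lengths per RefSeq transcript of rn6, per the file headers and the submitters' processing notes, which also name bcl2fastq 1.8.4, FastQC and Trimmomatic; versions of the other tools were not found in the labels. Only the deposited estimated counts entered tests; deposited TPM entered no printed value, and deposited effective lengths served as an alternative offset. Estimated counts were rounded and summed per gene symbol, with 17367 of 18321 transcripts matched by RefSeq accession. Genes were filtered by edgeR's filterByExpr and scaled by TMM. One edgeR 4.0.16 quasi-likelihood fit held the 9 hematoma libraries; calls needed an adjusted p (Benjamini-Hochberg, two-sided) below 0.05. CPM are TMM-scaled, with the femur libraries put on the same scale. Fold changes are nonunion over normal on the log2 scale. Intervals and floors of 3 reads cover counting error only, and reads carry no molecular identifiers. Library totals were 16808993 to 24325162 reads. DESeq2 1.42.0 and limma 3.58.1 were alternatives.

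Members and gene lists were chosen with earlier results of these data known. Named genes were the 12 largest called changes each way with a mean of at least 5 CPM in 1 group, up to 4 called and 2 abundant uncalled genes per list, and genes picked after their values were seen.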

Additional observations from a re-analysis of the deposited data

How the results depend on the processing

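No called gene named by rule changed direction under any alternative run. The uncalled Schwann cell and adipocyte gene S100b (629 CPM in nonunion 2, 0.57 and 1.85 CPM in the other nonunion libraries) had a log2 fold change of 3.93, which was -3.02 and called with limma-voom library weights and -3.43 and called without nonunion 2 and delayed 2. Of the 58 called genes named by rule, 14 kept their call in all 19 alternatives and 40 without nonunion 2. Between nonunion and normal, DESeq2 called 1309 genes (664 higher, 645 lower) and limma-voom with library weights, added after seeing the data, 2279 (908 higher, 1371 lower). A fit of all 12 libraries called 992 (488 higher, 504 lower), and a fit of the 6 libraries compared 198 (40 higher, 158 lower). Without nonunion 2 and delayed 2 the count was 429 (177 higher, 252 lower). The causes of these shifts were not tested. Leaving out 1 library gave 23 to 159 calls, 3 to 67 higher and 15 to 92 lower. Counts within 1.5 times the reported ones came from DESeq2 size factors (292; 133 higher, 159 lower), no filter (242), limma-voom (319; 83 higher, 236 lower), removal of ribosomal RNA (279; 127 higher, 152 lower), effective lengths as offsets (279) and the length trend removed (223). With the replicate block the count was 148 (36 higher, 112 lower). Deviations of same-numbered normal and nonunion libraries from their group means correlated at 0.07, -0.16 and -0.20. Those of differently numbered libraries correlated at -0.37 to 0.36. With 3 libraries per group, these values cannot decide whether replicate numbers pair the samples. Between nonunion and delayed, DESeq2 called 184 (149 higher, 35 lower), limma-voom with weights 269 (199 higher, 70 lower), and the fit without nonunion 2 and delayed 2 called 60 (56 higher, 4 lower). Leaving out 1 library there gave 0 to 1 calls, 0 to 1 higher and 0 to 1 lower. Depth limits the lowest genes: 3 reads correspond to 0.14 to 0.175 CPM in normal and 0.114 to 0.434 CPM in nonunion.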
